A study of Macaca mulatta with 30 samples.

Results

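Heat shock proteins and the DnaJ cochaperones that work with them were described across the cerebral cortex of 5 rhesus macaques. The genes were those whose annotated symbol begins with HSP90, with HSPA, HSPB, HSPD, HSPE or HSPH and a digit, or with DNAJA, DNAJB or DNAJC and a digit. Of the 40489 probe sets on the array, 55 carried a single symbol of this kind. They stood for 51 of the 15534 genes with a single symbol, and the brightest probe set was taken for each gene. The 51 genes comprised 3 HSP90 genes, 7 HSP70 genes, the HSP110 gene HSPH1, 6 small heat shock proteins, and HSPD1 with its partner HSPE1. The other members were 2 DNAJA, 8 DNAJB and 22 DNAJC genes.

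Heat shock proteins are molecular chaperones, which bind unfolded or unstable proteins, help them to fold and keep them from clumping. HSP70 proteins do so in cycles of ATP use that DnaJ proteins, the J-domain cochaperones, start by handing over a client and triggering ATP hydrolysis. HSP90 proteins finish the folding of kinases and hormone receptors, the chaperonin HSPD1 folds proteins inside mitochondria, and the small heat shock proteins hold unfolded proteins without ATP. In neurons, the J-domain protein DNAJC5 is known for protecting synaptic vesicle proteins.

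Total RNA came from frozen post-mortem brains and was measured on Affymetrix arrays, 1 array per animal, region and hemisphere. The regions were VFC, the ventrolateral prefrontal cortex, STC, the posterior part of the superior temporal cortex, and M1C, the forelimb field of primary motor cortex. Each of these 3 regions was taken from the left and the right hemisphere, which gave 30 arrays and 5 per combination. Animals 1, 2 and 3 were females of 7.3, 5.5 and 8.6 years, and animals 4 and 5 were males of 4.2 and 2.0 years. Neither sex nor age was tested, since each goes with the animal. The labels list no treatment, all animals came from the same primate centre, and the time from death to freezing was known for some of them only. In such bulk tissue, fewer cells of a type and less RNA per cell cannot be told apart.

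Values are deposited log2 intensities, so a difference of 1 is a doubling, and a probe set's level cannot be set against that of another probe set. Dim probe sets were left untested, with the limit set at the 40th percentile of probe set means, a log2 level of 6.04. Above it lay 24292 probe sets and 44 of the 51 heat shock and DnaJ genes. The 7 others, DNAJB12, DNAJB7, DNAJC12, DNAJC17, DNAJC22, HSPB3 and HSPB7, had means between 3.33 and 5.92 and were not tested. Some of the best known genes, HSPA1A, HSPA1B, HSPA2, HSPA8, HSPA9, DNAJB1 and DNAJC6, have no probe set annotated with a single symbol and were not analysed here. A result counts as passing the test at an adjusted p under 0.05 over all tested probe sets, and errors of differences are limma's standard errors over n = 5 animals.

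Among the arrays, 2 went against their labels. Deviations from the group means correlated best with the labelled animal's other arrays for 28 of the 30 arrays. For the M1C left array of animal 3 the median correlation was -0.058 with its own animal and 0.15 with animal 4, and for the STC right array of animal 4 it was 0.062 with its own animal and 0.35 with animal 3. EIF1AY, a Y-linked gene, read 8.34 on the first, against 6.83 to 7.87 on the other 17 arrays of the females, and 7.25 on the second, against 8.29 to 8.57 on the other 11 arrays of the males. A score over the 200 probe sets that differed most between STC and M1C in animals 1, 2 and 5 was 0.24 on the array labelled M1C left, and between -0.64 and 0.069 on the other M1C arrays. It was -0.52 on the array labelled STC right, and between 0.069 and 0.46 on the other STC arrays. Animals 1, 2 and 5 picked the probe sets, so their arrays in these ranges are no independent reference. Of the other animals, M1C right of animal 3 read -0.57, and M1C left and right of animal 4 read -0.53 and -0.47. STC left and right of animal 3 read 0.096 and 0.069, and STC left of animal 4 read 0.18. Results are given on all 30 arrays as labelled and, where they differ, without these 2 arrays.

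The first comparison asked where chaperone genes differ between prefrontal and motor cortex. On all arrays 7 of the 44 tested genes (15.9%) differed between VFC and M1C, against 10.5% of all 24292 probe sets. In VFC 2 of them were higher and 5 lower, against 5.19% and 5.32% of all probe sets, and 14 of the 44 (31.8%) reached an unadjusted p under 0.05, against 24.3% of all probe sets. The median difference of the 44 genes was -0.028, against 0.0028 for all probe sets, with 16 genes above 0 and 28 below. Of all probe sets 12426 lay above 0 and 11866 below. DNAJA4 and DNAJB5 were higher in VFC. HSPB1, HSPB6, HSPA12A, DNAJC21 and DNAJC28 were lower. The 44 differences ran from -0.34 for HSPB6 to 0.33 for DNAJA4.

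None of the 3 HSP90 genes passed the test. HSP90AA1, the stress-inducible cytosolic form, averaged 6.89 ± 0.139 in VFC and 6.99 ± 0.131 in M1C (SD, n = 5 animals each), a difference of -0.10 ± 0.080. HSP90AB1, the constitutive cytosolic form, averaged 12.06 ± 0.0439 in VFC and 12.01 ± 0.0499 in M1C, a difference of 0.051 ± 0.038. For HSP90B1, the form of the endoplasmic reticulum, the difference was 0.033 ± 0.036. Of the 3, HSP90AA1 had the VFC minus M1C differences that varied most from animal to animal, from -0.38 in animal 4 to 0.23 in animal 5. Its probe set averaged 6.93, and a second HSP90AA1 probe set averaged 3.88, below the filter, and was not tested.

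Among the 7 HSP70 genes only HSPA12A passed. HSPA12A is a distant relative of the classical HSP70 proteins that is abundant in brain. Its region means in animals 1 to 5 were 10.43, 10.20, 10.35, 10.27 and 10.19 in VFC, against 10.67, 10.68, 10.53, 10.61 and 10.41 in M1C. The gene was lower in VFC in all 5 animals, and the ranges of the regions overlapped only through animal 1 in VFC and animal 5 in M1C. The difference was -0.29 ± 0.059, 1.22-fold lower in VFC (adjusted p = 0.0097, range over the alternative settings 0.00119 to 0.102). HSPA5, the chaperone of the endoplasmic reticulum also called BiP, averaged 9.06 ± 0.0622 in VFC and 9.08 ± 0.112 in M1C. HSPH1, the HSP110 protein that exchanges nucleotides on HSP70, averaged 10.61 ± 0.0469 in VFC and 10.63 ± 0.0716 in M1C. The other 5 HSP70 genes, HSPA4, HSPA12B, HSPA13, HSPA14 and HSPA1L, had differences between -0.052 and 0.073.

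Both of the small heat shock proteins that passed were lower in VFC. HSPB1, which is HSP27 and is known for stabilising actin filaments, had region means of 8.45, 7.91, 7.98, 7.56 and 7.33 in VFC, against 8.77, 8.25, 8.07, 7.95 and 7.83 in M1C. Each animal was lower in VFC, although the spread between animals was wider than the difference between regions. The difference was -0.33 ± 0.089, 1.25-fold lower (adjusted p = 0.0349, range 0.000848 to 0.448). HSPB6, which is HSP20 and is best known from muscle, had region means of 9.24, 9.07, 8.75, 9.05 and 8.66 in VFC, against 9.23, 9.42, 9.28, 9.46 and 9.08 in M1C. It was lower in VFC in 4 of 5 animals and 0.0056 higher in animal 1, with a difference of -0.34 ± 0.074 (adjusted p = 0.0131, range 0.00524 to 0.192). HSPB8, the small heat shock protein that works with BAG3 in selective autophagy, differed by 0.019 ± 0.056, and HSPB2 by -0.019 ± 0.064.

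The mitochondrial pair read lower in VFC in all 5 animals without passing the test. HSPD1, the HSP60 chaperonin, had region means of 10.48, 10.44, 10.34, 10.38 and 10.40 in VFC, against 10.75, 10.58, 10.57, 10.50 and 10.44 in M1C. Its difference was -0.16 ± 0.049 (adjusted p = 0.0568). HSPE1, the HSP10 lid of that chaperonin, averaged 10.65 ± 0.0114 in VFC and 10.73 ± 0.0474 in M1C, a difference of -0.082 ± 0.035 (adjusted p = 0.176). A pair of other HSPE1 probe sets read -0.087 and, with values identical to those used, -0.082.

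Of the 2 DNAJA and 6 tested DNAJB genes, 1 each passed, and both were higher in VFC. DNAJA4, a cytosolic J-domain protein of the type closest to bacterial DnaJ, had region means of 8.38, 8.64, 8.64, 8.35 and 8.58 in VFC, against 8.27, 8.0, 8.33, 8.06 and 8.27 in M1C. All 5 VFC values lay above all 5 M1C values. The difference was 0.33 ± 0.065, 1.26-fold higher in VFC (adjusted p = 0.0085, range 0.00299 to 0.101), and it was lost under 1 of 17 alternative settings. DNAJB5, a cytosolic partner of HSP70, had region means of 8.01, 8.21, 8.0, 8.49 and 8.44 in VFC, against 7.63, 8.06, 7.91, 8.01 and 7.89 in M1C. It was higher in VFC in every animal, but the ranges overlapped. The difference was 0.33 ± 0.097, 1.26-fold higher (adjusted p = 0.0485, range 0.00443 to 0.319), and it was lost under 10 of the 17 settings. DNAJA1, the main cytosolic DNAJA protein, differed by 0.050 ± 0.037. DNAJB6, known for keeping polyglutamine proteins from aggregating, differed by 0.016 ± 0.061. The other 4 tested DNAJB genes had differences from -0.085 for DNAJB9 to 0.11 for DNAJB4.

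Of the 19 tested DNAJC genes 2 passed and both were lower in VFC. DNAJC21, which takes part in maturation of the large ribosomal subunit, had region means of 8.56, 8.56, 8.54, 8.55 and 8.33 in VFC, against 8.86, 8.73, 8.73, 8.76 and 8.49 in M1C. The difference was -0.21 ± 0.047 (adjusted p = 0.0152, range 0.00377 to 0.305) and had the same sign in all 5 animals. DNAJC28, a J-domain protein studied less than the others, had region means of 7.65, 7.40, 7.48, 7.71 and 7.10 in VFC, against 7.91, 7.74, 7.78, 7.79 and 7.41 in M1C. All 5 animals were lower in VFC, animal 4 least, by 0.084 on the log2 scale. The difference was -0.26 ± 0.047, the smallest adjusted p of the 44 genes at 0.0066 (range 0.00261 to 0.258). Of the 19 DNAJC genes, 14 had a difference below 0 and their median was -0.064. Those that did not pass ran from -0.16 for DNAJC3 to 0.17 for DNAJC1 (adjusted p = 0.0878 and 0.0554). DNAJC5, the synaptic vesicle protein, averaged 10.08 ± 0.0677 in VFC and 10.15 ± 0.0356 in M1C. The difference of its brightest probe set was -0.066 ± 0.037, and a second DNAJC5 probe set read 0.11, so that the 2 probe sets differ in sign.

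**Figure D1:**
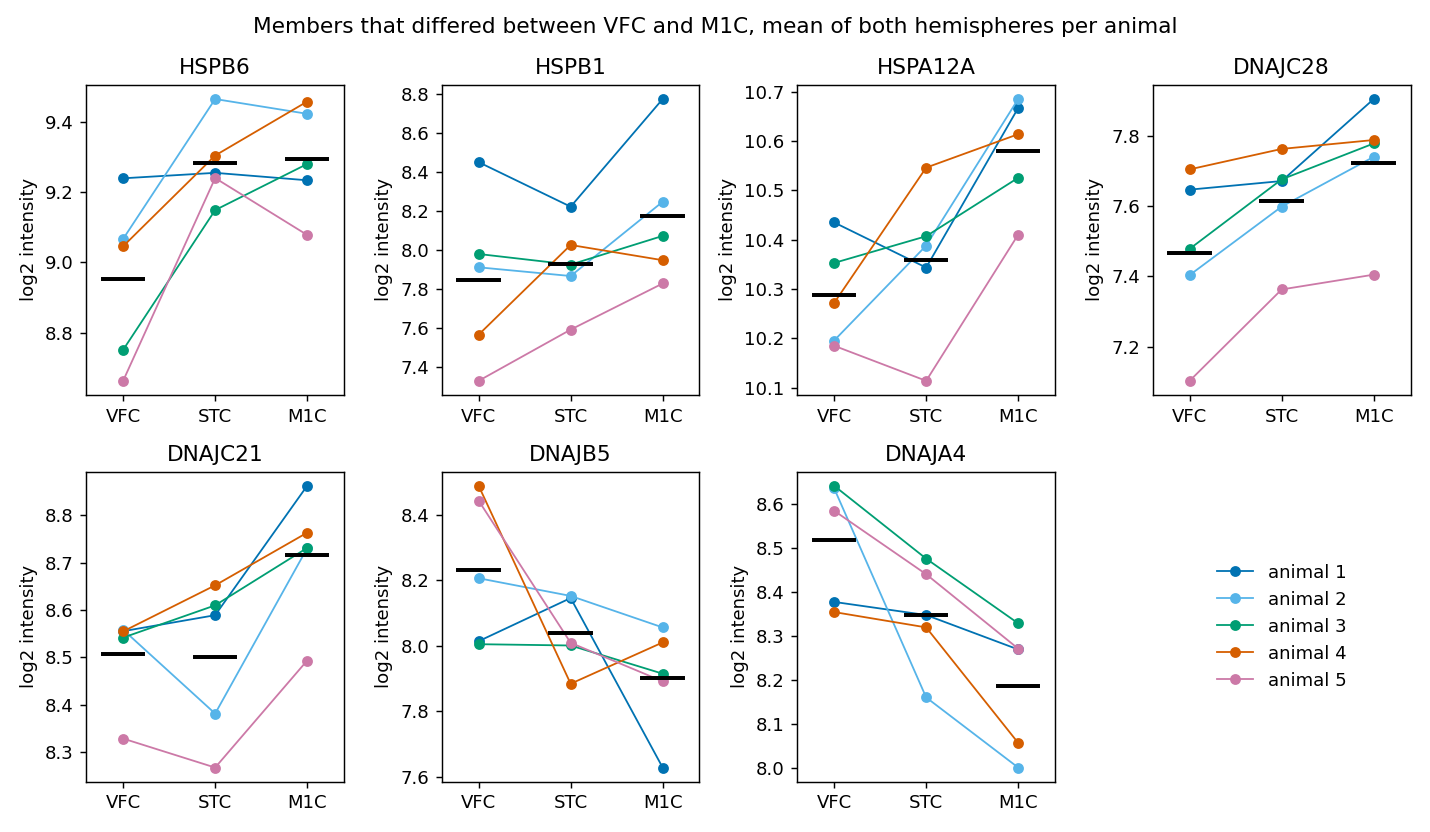
The log2 intensity (y axis) of the 7 genes that passed the test between VFC and M1C is plotted by region (x axis), with 1 line per animal joining the means of both hemispheres and a black bar at the mean of the 5 animals. DNAJA4 is higher in VFC than in M1C in every animal, by 0.33 on average, and HSPA12A is lower in every animal, by 0.29 on average.

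Without the 2 arrays that went against their labels, 9 of the 44 genes passed between VFC and M1C, against 14.7% of all probe sets. These were the same 7 genes with HSPD1 and DNAJC3 added, 2 higher and 7 lower in VFC, against 7.17% and 7.58% of all probe sets. DNAJC3 is an HSP70 cochaperone of the endoplasmic reticulum that also inhibits the kinase PERK. HSPD1 then read -0.20 ± 0.055 (adjusted p = 0.0295) and DNAJC3 -0.20 ± 0.059 (adjusted p = 0.0402). Both were named for this setting after their values were seen, although HSPD1 is also among the best known genes chosen beforehand. HSPB1 read -0.39 ± 0.057 in this setting, HSPA12A -0.32 ± 0.050 and DNAJB5 0.39 ± 0.076. Leaving out 1 animal at a time gave 3 to 6 calls. DNAJA4 and DNAJC28 passed whichever animal was left out, with adjusted p of at most 0.0387 and 0.0438. DNAJB5 did not pass without any 1 animal (adjusted p 0.0521 to 0.17). HSPA12A was lost without animal 2, HSPB6 without animals 2, 3 or 4, DNAJC21 without 1, 4 or 5, and HSPB1 without 1, 2, 4 or 5, at adjusted p of up to 0.0584, 0.0643, 0.0727 and 0.133.

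The second comparison set temporal against motor cortex. On all 30 arrays 1 of the 44 genes passed (2.27%), against 2.36% of all probe sets. This gene was DNAJC21, which was lower in STC, as were 1.14% of all probe sets. Its region means were 8.59, 8.38, 8.61, 8.65 and 8.27 in STC, against 8.86, 8.73, 8.73, 8.76 and 8.49 in M1C, lower in STC in all 5 animals. The difference was -0.22 ± 0.047 (adjusted p = 0.0358, range 0.00314 to 0.324), and it was lost whichever animal was left out (adjusted p 0.0582 to 0.172). Another 11 genes reached an unadjusted p under 0.05, so that 12 of 44 (27.3%) did, against 19.4% of all probe sets. The best known genes of each family lay between -0.25 for HSPB1 and 0.024 for DNAJB6 in this comparison.

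This comparison depended on the 2 arrays, which are an STC array and an M1C array. Without them 10 of the 44 genes passed, 9 lower and 1 higher in STC, against 12.6% of all probe sets (6.63% lower and 5.96% higher). The 9 lower genes were HSPB1, DNAJC21, HSPA12A, DNAJC3, DNAJC4, HSPD1, HSPA4, DNAJC7 and HSPE1, and the higher gene was DNAJB5. All but DNAJC21 were named for this setting after their values were seen, although HSPB1, HSPD1 and HSPE1 are also among the best known genes chosen beforehand. HSPB1 read -0.40 ± 0.057 (adjusted p = 0.00121) without the 2 arrays, against -0.25 ± 0.089 (adjusted p = 0.151) on all arrays. HSPA12A read -0.27 ± 0.050 (adjusted p = 0.0048) without them, against -0.22 ± 0.059 (adjusted p = 0.0698) on all arrays. Both mitochondrial genes passed in this setting, HSPD1 at -0.19 ± 0.055 and HSPE1 at -0.14 ± 0.039. HSPA4, an HSP110-like nucleotide exchange factor, read -0.18 ± 0.043, and DNAJC7, a J-domain protein that binds both HSP70 and HSP90, read -0.17 ± 0.046.

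Some genes stood outside the range of their region on these arrays. HSPB1 stood at 8.48 on the array labelled STC right of animal 4, against 7.51 to 8.29 on the other 9 STC arrays. HSPA12A stood at 10.67 on that array, against 10.07 to 10.42, and DNAJB5 at 7.56, against 7.90 to 8.21. For HSPB1 and HSPA12A the array lay above the range of the other STC arrays, and for DNAJB5 below it. Of the 44 genes, 15 (34.1%) lay outside the range of the other STC arrays on this array, against 29.2% of all probe sets, and on the other 9 STC arrays 4 to 13 genes did, with a median of 7. On the array labelled M1C left of animal 3, 16 genes (36.4%) lay outside the range of the other M1C arrays, against 23.8% of all probe sets. On the other 9 M1C arrays 2 to 16 genes did, with a median of 7 and the highest count on M1C right of animal 3. On the 10 VFC arrays, none of which went against its label, 3 to 19 genes lay outside the range of the other VFC arrays. Their median was 7.5, and 12.8% to 32.1% of all probe sets lay outside on these arrays.

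**Figure D2:**
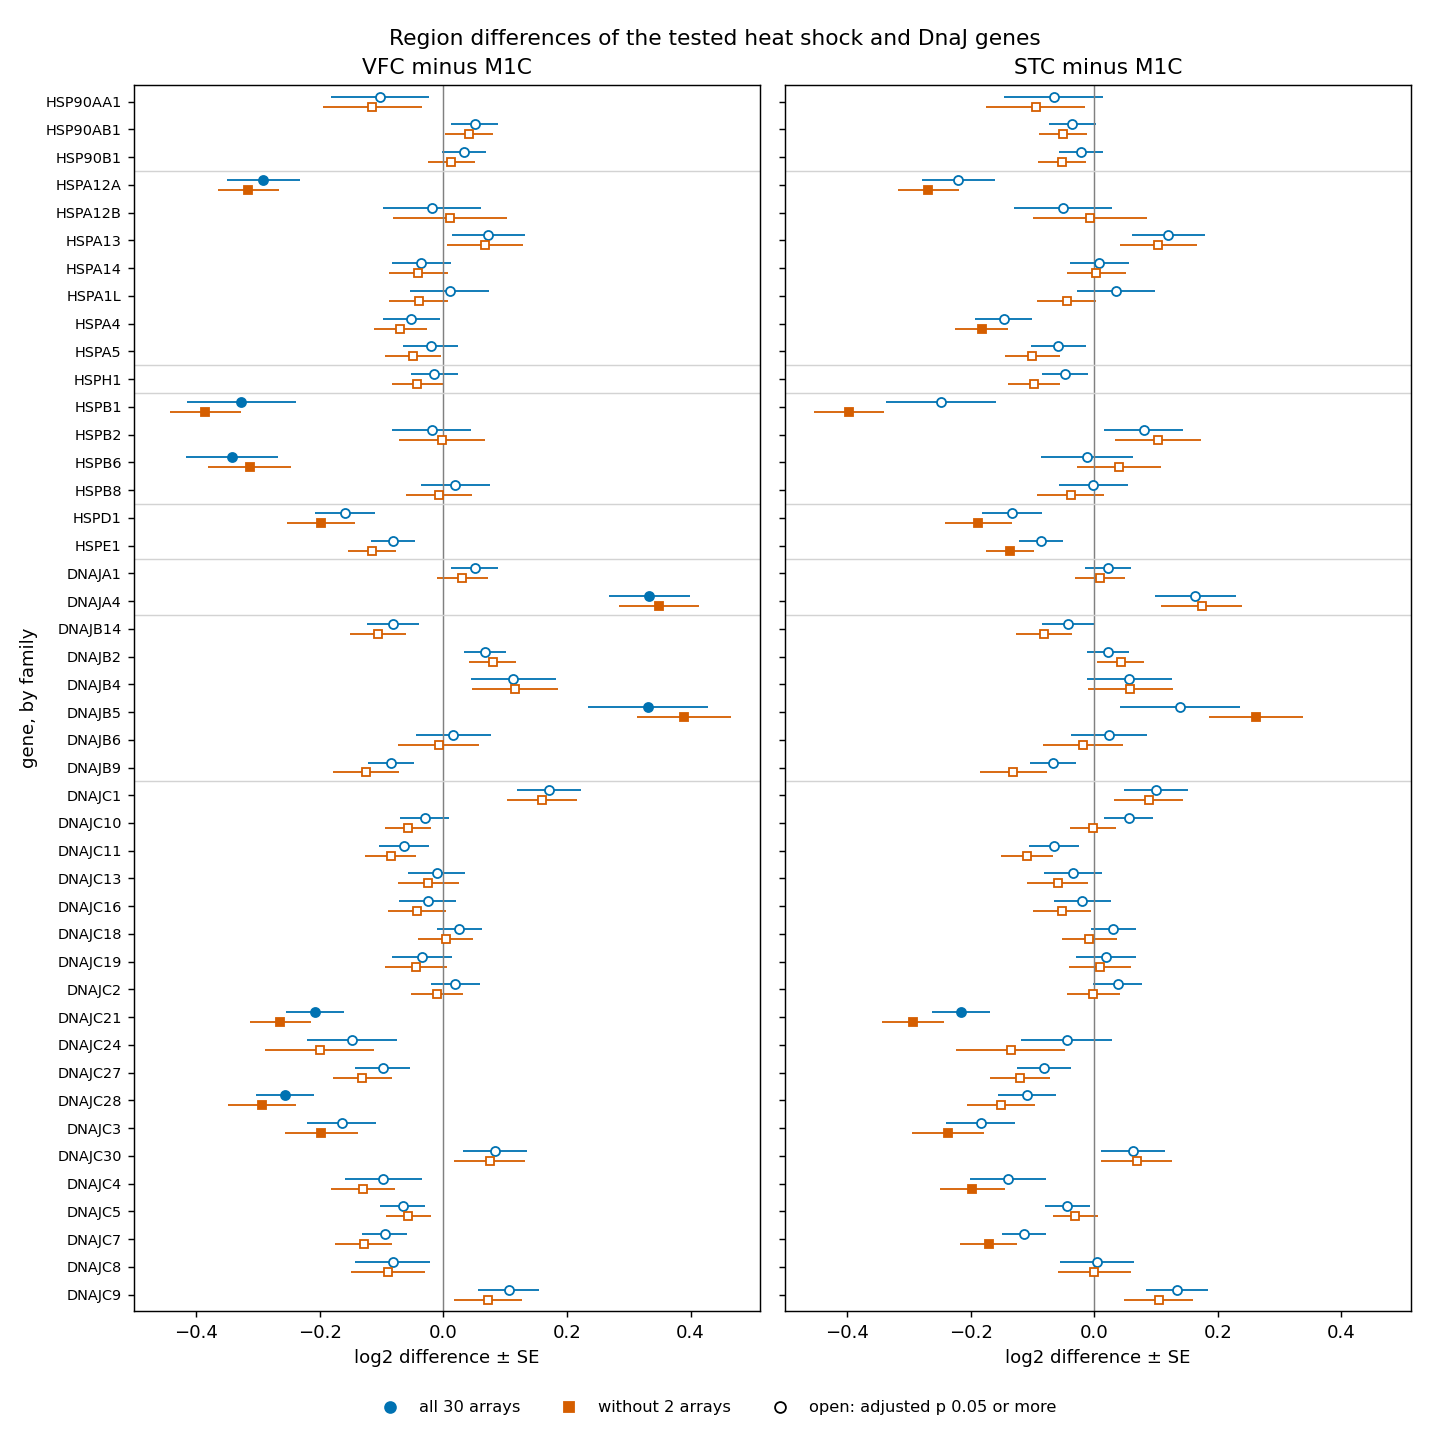
The log2 difference with its standard error (x axes) is plotted for each of the 44 tested genes (y axis, by family), VFC minus M1C on the left and STC minus M1C on the right, on all 30 arrays (blue circles) and without 2 arrays (orange squares), filled where the adjusted p is under 0.05. On the right, 1 circle and 10 squares are filled.

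**Figure D3:**
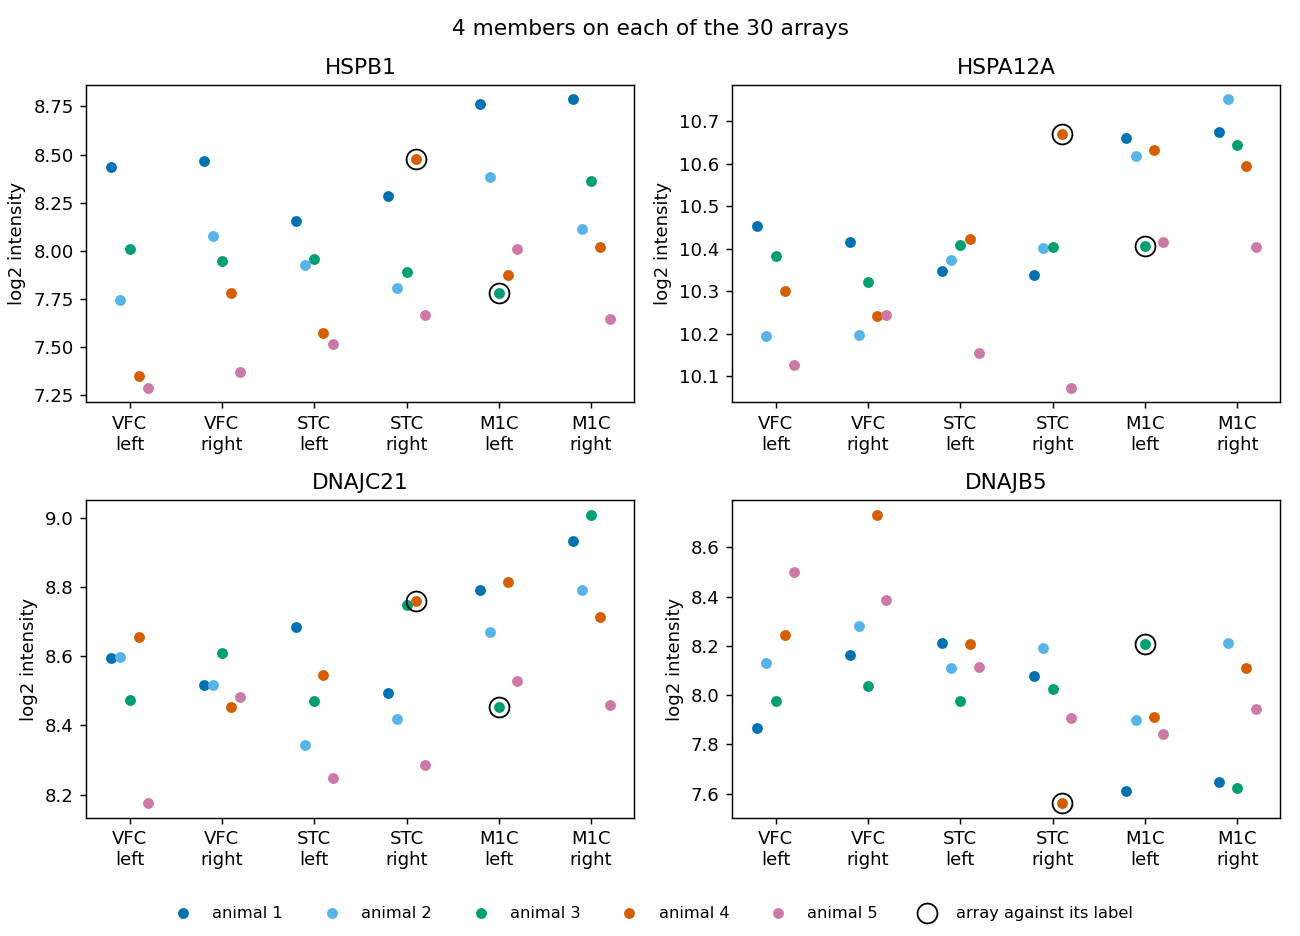
The log2 intensity (y axis) of HSPB1, HSPA12A, DNAJC21 and DNAJB5 is plotted on each of the 30 arrays by region and hemisphere (x axis), coloured by animal, with black rings around the 2 arrays that went against their labels. HSPB1 stands at 8.48 on the ringed STC array and at 7.78 on the ringed M1C array.

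Between VFC and STC, 0 of the 44 genes passed by limma, against 0.214% of all probe sets, and 4 reached an unadjusted p under 0.05 (9.09%, against 13.4% of all probe sets). HSPB6 came closest. Its region means were 9.24, 9.07, 8.75, 9.05 and 8.66 in VFC, against 9.26, 9.47, 9.15, 9.30 and 9.24 in STC. VFC was lower in all 5 animals, by 0.016 in animal 1 and by 0.26 to 0.58 in the others. The difference was -0.33 ± 0.074 (adjusted p = 0.0874, range 0.0324 to 0.487), with the lowest of these without animal 1. It was -0.35 ± 0.068 without the 2 arrays (adjusted p = 0.0411), where HSPB6 was the 1 gene to pass, against 0.655% of all probe sets. The 3 region comparisons share samples, so HSPB6 is given side by side: -0.34 for VFC minus M1C, -0.33 for VFC minus STC and -0.012 for STC minus M1C. HSPA12A read -0.29 for VFC minus M1C and -0.22 for STC minus M1C.

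Genes that work with these chaperones were read from 4 lists. Of 22 tested cochaperones and nucleotide exchange factors of HSP70 and HSP90, 1 was higher and 4 were lower in VFC than in M1C (22.7%), against 10.5% of all probe sets (5.19% higher and 5.32% lower), with a median of -0.029. FKBP5, an HSP90 cochaperone that damps the glucocorticoid receptor, had region means from 6.21 to 7.28 in VFC, against 6.88 to 7.89 in M1C. It was lower in VFC in all 5 animals, with a difference of -0.50 ± 0.108 (adjusted p = 0.0123). The other 3 lower genes were BAG1 at -0.23, TTC1 at -0.18 and FKBP4 at -0.17, and BAG4, named after its values were seen, was higher at 0.15. Among 10 tested heat shock factors and heat-inducible genes that the symbol rule misses, CRYAB and FKBP4 were lower (20%) and none was higher. CRYAB, the small heat shock protein alpha-B crystallin, had region means from 10.16 to 10.77 in VFC, against 10.67 to 11.20 in M1C, a difference of -0.42 ± 0.110 (adjusted p = 0.0321, lower in 4 of 5 animals). Of 12 tested subunits of the cytosolic chaperonin and of prefoldin, PFDN1 alone was lower, at -0.25, which is 8.33% of the list. Of 16 tested chaperones of the endoplasmic reticulum and genes of the unfolded protein response, 0 passed by limma and 0 reached an unadjusted p under 0.05. Over all probe sets these shares were 10.5% and 24.3%. Between STC and M1C, TTC1 alone of these 4 lists passed, at -0.21 ± 0.049 (4.55% of the cochaperones, against 2.36% of all probe sets), and between VFC and STC none did. Without the 2 arrays, 6 of the 22 cochaperones, 2 of the 10 heat shock factors and heat-inducible genes, 1 of the 12 chaperonin and prefoldin subunits and 0 of the 16 genes of the endoplasmic reticulum passed between VFC and M1C, against 14.7% of all probe sets. Between STC and M1C these counts were 7, 3, 2 and 1, all of them lower in STC, against 12.6% of all probe sets.

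Markers of other cell types moved between the same regions, where 10.5% of all probe sets passed between VFC and M1C. All 11 tested oligodendrocyte and myelin markers were lower in VFC than in M1C, with a median of -0.90. Their mean level per array ranged from 8.08 to 9.46 in VFC, against 9.11 to 10.19 in M1C. The lowest M1C value was on the left array of animal 3, which went against its label. All other M1C arrays read 9.53 or more. Of 8 markers of large projection neurons or of fast-firing neurons 7 were lower in VFC, with a median of -0.89. Their mean level ranged from 9.18 to 9.995 in VFC, against 9.85 to 10.78 in M1C. The lowest M1C value was again on the left array of animal 3, and all other M1C arrays read 10.28 or more. Lower too were 2 of 9 astrocyte markers (GLUL and FGFR3) and 1 of 7 vascular markers (FLT1). Of 8 meningeal markers 3 (OGN, DCN and SLC13A4) were higher, as were 2 of 6 excitatory neuron markers (CAMK2A and NEUROD6) and SST among the 8 interneuron markers. PVALB was lower, and it is on both the interneuron list and the list of large or fast-firing neurons. Of the markers on the array, all 6 excitatory and all 8 interneuron markers lay above the filter. None of the 6 tested microglial markers passed, and no blood marker lay above the filter. Without the 2 arrays 3 astrocyte and 2 vascular markers were lower in VFC, and 1 microglial and 2 meningeal markers were higher. The other marker counts between VFC and M1C stayed the same, against 14.7% of all probe sets. The part of these cell types in the chaperone results was not tested. Between STC and M1C, 1 of 11 oligodendrocyte markers, 4 of 8 markers of large or fast-firing neurons and 2 of 9 astrocyte markers (GLUL and FGFR3) were lower in STC on all arrays, and SST was higher, against 2.36% of all probe sets. Without the 2 arrays, 8 oligodendrocyte markers, 7 markers of large or fast-firing neurons, 3 astrocyte markers and 2 of 7 vascular markers were lower in STC. In that setting 2 of 6 excitatory markers were higher, as were 2 of 8 interneuron markers with 1 lower, and no microglial or meningeal marker passed, against 12.6% of all probe sets.

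Of the 29 degrees of freedom among the 30 arrays, animal has 4, region 2 and hemisphere 1, so that with no effect they would take on average 13.8%, 6.90% and 3.45% of a gene's variance. These are means, and shares with few degrees of freedom are skewed, so a median can lie below them with no effect. The median share of a gene's variance that went with the animal was 23.9% over the 44 genes, that of region 12.04% and that of hemisphere 1.38%, against 22.9%, 8.73% and 1.30% over all tested probe sets. Per degree of freedom the medians of the 44 genes were 5.98% for animal, 6.02% for region and 1.38% for hemisphere. Over all tested probe sets they were 5.72%, 4.36% and 1.30%. HSPB8 had the largest share between animals, 78.7%. Its 6 arrays per animal had medians of 6.80, 6.51, 6.95, 6.81 and 6.30 in animals 1 to 5, and animal 5 ranged from 6.04 to 6.47, against 6.33 or more in each of the others. HSPA1L, an HSP70 gene known mainly from testis in humans, followed with 77.8%. It had medians of 6.53, 5.96, 5.99, 5.95 and 6.36, highest in animals 1 and 5. It passed the filter of 6.04 only through these 2 animals, since its means in animals 2, 3 and 4 were 5.96, 5.89 and 5.99, and it was the only gene of the 44 with an animal's mean below the filter. DNAJC10, a J-domain protein of the endoplasmic reticulum that reduces disulfide bonds, had 61.8%, with medians of 9.30, 9.05, 9.23, 8.97 and 9.06. HSPB1 had 57.9% between animals and 13.1% between regions, with medians of 8.45, 8.0, 7.95, 7.83 and 7.58. Region took its largest shares in HSPA12A (49.5%), HSPB6 (39.3%) and DNAJA4 (36.6%), genes that were called between VFC and M1C on the same values. With 5 animals, each differing in age and some in sex, these shares carry no test.

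**Figure D4:**
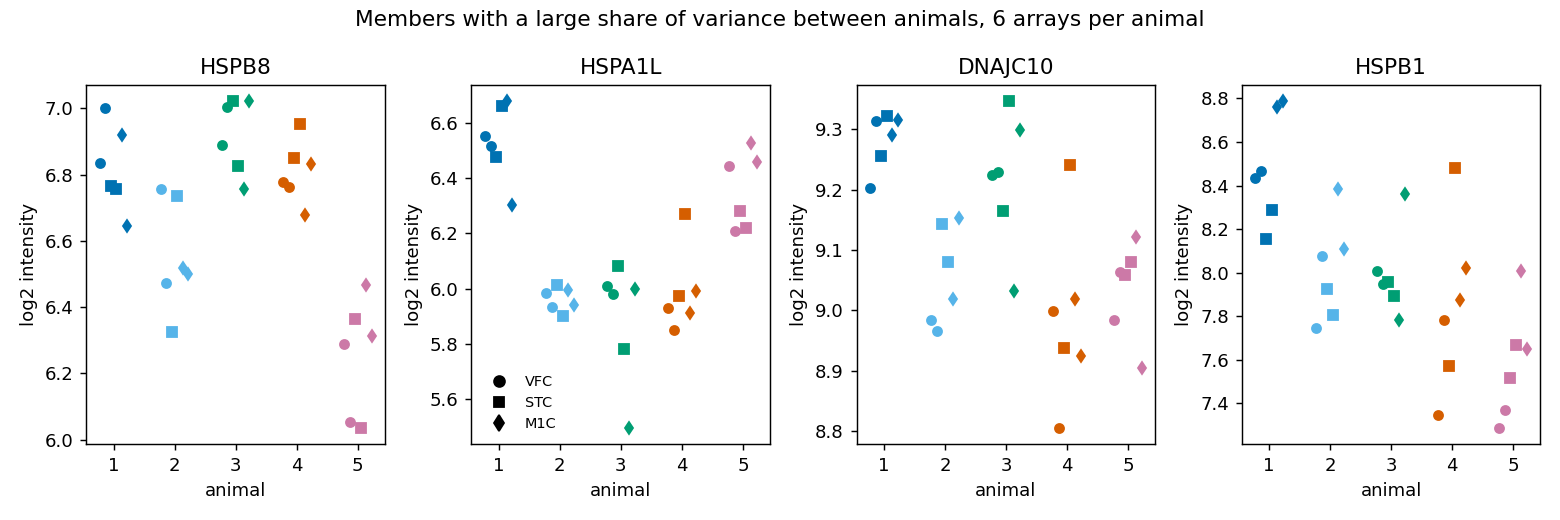
The log2 intensity (y axis) of HSPB8, HSPA1L, DNAJC10 and HSPB1 is plotted by animal (x axis, 6 arrays each), with circles for VFC, squares for STC and diamonds for M1C. HSPB8 stays between 6.04 and 6.47 in animal 5 whatever the region, and its regions are mixed within each animal.

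The title of the series asks about differences between hemispheres. No heat shock or DnaJ gene passed between left and right. Over all regions 0 of 44 genes passed by limma and 0 reached an unadjusted p under 0.05, against 0 and 6.62% of all probe sets. The differences ran from -0.13 for HSPB1 to 0.13 for DNAJA4, with 13 genes above 0, 31 below and a median of -0.016. Of all 24292 probe sets 11488 lay below 0, with a median of 0.0033. Without the 2 arrays 21 of the 44 lay below 0 and the median was 7.8e-04. In that setting 11242 of all probe sets lay below 0, with a median of 0.0041.

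The smallest p-values over all regions belonged to HSPA12B, DNAJB9 and HSPB1. HSPA12B, an HSP70 relative of endothelial cells, averaged 6.91 ± 0.0787 on the left and 6.83 ± 0.0387 on the right (SD, n = 5 animals). Its difference was 0.081 ± 0.040 (adjusted p = 0.784), higher on the left in 4 of 5 animals. DNAJB9, a J-domain protein of the endoplasmic reticulum, was lower on the left in all 5 animals, by 0.029, 0.046, 0.17, 0.023 and 0.092, with a mean difference of -0.072 ± 0.037 (adjusted p = 0.792). The largest of these was that of animal 3, whose M1C left array went against its label and read 9.03, against 9.43 on M1C right. Over the alternative settings the mean of DNAJB9 ran from -0.084 to 0.013. For HSPB1 the differences of animals 1 to 5 were -0.063, 0.020, -0.15, -0.50 and 0.042, a mean of -0.13 ± 0.074 (adjusted p = 0.83). Animal 4, whose STC right array went against its label, had the largest of these, and the mean was -0.045 ± 0.056 without the 2 arrays. DNAJA4 had the highest mean, with animal 2 at 0.49, against -0.11 to 0.18 in the other animals.

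Within single regions 0 of 44 genes passed by limma in VFC, STC or M1C, as did 0 of all probe sets. In VFC 1 gene reached an unadjusted p under 0.05 (2.27%, against 3.58% of all probe sets), and in STC and M1C none did (against 4.66% and 5.63%). The VFC gene was HSPA14, an HSP70 protein of the ribosome-associated complex, with 7.30 ± 0.134 on the left and 7.41 ± 0.105 on the right. It was lower on the left in all 5 animals, with a difference of -0.12 ± 0.054 that missed the threshold after adjustment (unadjusted p = 0.0465 and adjusted p = 1.0 by limma). Next in VFC came DNAJC8, which is linked to splicing, at -0.14 ± 0.070 and DNAJC18 at -0.13 ± 0.074. In STC the smallest p-values belonged to DNAJA4 at 0.17 ± 0.101, HSPH1 at -0.10 ± 0.064 and DNAJC10 at -0.10 ± 0.071. In M1C they belonged to DNAJC7 at -0.11 ± 0.065, DNAJA4 at 0.18 ± 0.101 and HSPB2 at 0.11 ± 0.064. Their adjusted p was 0.999 in STC and 0.879 in M1C. Over the alternative settings the STC differences reached 0.051 for DNAJA4, -0.016 for HSPH1 and -0.0092 for DNAJC10. Without the doubted arrays HSPH1 read -0.071 in STC. The M1C differences reached -0.059 for DNAJC7, 0.096 for DNAJA4 and 0.062 for HSPB2. DNAJC7 stood at 9.42 on the array labelled M1C left of animal 3, against 9.47 to 9.76 on the other M1C arrays.

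No gene passed the test of whether left minus right differs between the 3 regions, against 0 of all probe sets, and 0 of 44 reached an unadjusted p under 0.05, against 3.75% of all probe sets. The smallest p-values belonged to HSPA14 (moderated F of 3.23), DNAJB5 (2.13) and DNAJC8 (1.98), each with an adjusted limma p of 0.995. A p that misses the threshold does not show that the hemispheres are alike. For the 12 best known genes, the left minus right differences over all regions lay between -0.13 for HSPB1 and 0.048 for HSP90AA1.

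**Figure D5:**
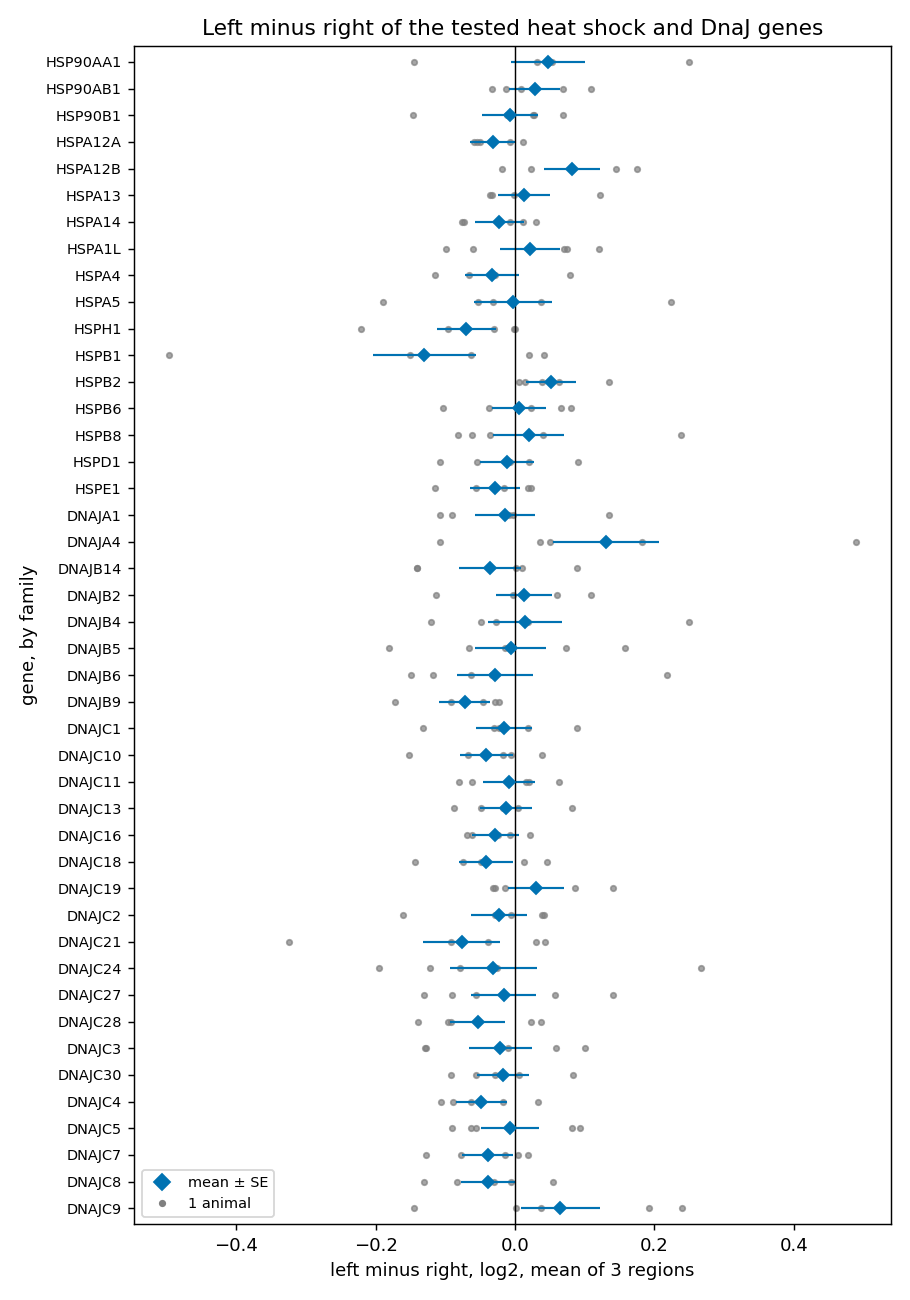
The left minus right log2 difference (x axis, mean of the 3 regions) is plotted for each of the 44 tested genes (y axis, by family), with grey points for the 5 animals and diamonds with bars for the mean and its standard error. The means lie between -0.13 for HSPB1 and 0.13 for DNAJA4, and the points of most genes fall on both sides of 0.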

How the data were processed

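The deposited values are log2 intensities per probe set, computed by RMA with the oligo package, per the submitters' processing notes. No version and no genome build is given in the sources used here, so no coordinates are printed. Array medians lay between 6.57 and 6.64, and arrays give no read depth, and precision is limited by the number of animals. Gene symbols came from the platform annotation, in which 16020 probe sets had 1 symbol, 490 had several and 23979 were not listed. A trio of probe sets with several symbols, of which 1 fits the rule, was left out.

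All tests were two-sided and ran in limma (version 3.58.1) under R 4.3.3, and the data.table package (version 1.17.8) read the files. P-values were adjusted by Benjamini-Hochberg over the 24292 tested probe sets. Region comparisons used the mean of both hemispheres with the animal as block (8 residual degrees of freedom). Left minus right was tested on differences within animals (4 degrees of freedom over all regions, 12 by region), and the interaction by a moderated F test. The fit by region and the interaction held no animal term, so an animal's differences in several regions were treated as independent. The titles number the animals, which gives the pairing. Deviations of arrays from 1 animal correlated with a median r of 0.32 over 75 pairs, against -0.082 between animals and groups. Variance shares are sums of squares as percent of the total. The fits were tested on simulated data.

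The members, gene lists and tests were chosen with earlier results of these data known. Named genes are the members called in a region comparison, those with the 3 smallest p-values in each hemisphere comparison, the best known of each family between VFC and M1C, and the 3 with the largest share between animals. From each of the 13 other lists up to 4 called genes with the smallest p were to be named, and BAG4 was added to those of the cochaperones. Alternatives were no animal block, other filters, normalizations and variance models, other probe sets, 1 hemisphere, and leaving out animals or doubted arrays.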

Additional observations from a re-analysis of the deposited data

Results flagged for a closer look

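Among the 30 genes named, 180 groups of 5 arrays (1 region and hemisphere) were searched for an array that lay far from the other 4. Of these, 10 held such an array. The genes were read on the same arrays and animals, so the groups are not independent. Whether chance alone gives as many was not tested. The arrays are therefore listed as values only. HSPB8 was low in animal 5 in a pair of groups, at 6.29 in VFC left, against 6.76 to 6.89 in the others, and at 6.04 in STC right, against 6.74 to 6.95. Animal 5 was also low for DNAJC18 in VFC left (8.16, against 8.51 to 8.59), for DNAJC3 in M1C right (7.97, against 8.38 to 8.44) and for HSPA12A in STC left (10.16, against 10.35 to 10.42). DNAJA4 was low in STC right of animal 2 (7.83, against 8.34 to 8.41). In animal 4 a pair of arrays stood apart, with DNAJC4 at 7.63 in VFC left (against 7.74 to 7.79) and HSPB2 at 6.68 in M1C left (against 6.51 to 6.55). In animal 1 a pair of arrays was high, with HSPA14 at 7.60 in M1C left (against 7.35 to 7.40) and HSPH1 at 10.76 in STC left (against 10.42 to 10.50). None of these is among the 2 arrays that went against their labels.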

How the results depend on the processing

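Of the 7 genes called between VFC and M1C, 1 was called with no replicate block, 0 on left arrays and 2 on right arrays. With no filter 5 genes were called, 6 with centred arrays, and 3 to 6 when 1 animal was left out. Calls rose to 8 with the filter at the 60th percentile, repeated quantile normalization, or trend and robust variances. They rose to 9 with 1 gene symbol, with the mean of a gene's probe sets, and without 2 or 4 arrays. Over all probe sets the calls numbered 833 with no block, 3 on left arrays, 1147 on right arrays and 1676 with no filter. They numbered 2472 with centred arrays and 999 to 2272 without 1 animal. In the settings with 8 genes they numbered 2485, 2622 and 2805, and in those with 9 genes 1934, 1891, 3583 and 3634. The filter changes how many probe sets are tested, so these counts are not shares. Between STC and M1C the 1 call became 0 with no block, with no filter, on left or right arrays and without any 1 animal. It became 2 with the filter at the 60th percentile, 1 gene symbol, trend and robust variances, or the mean of a gene's probe sets, 10 without 2 arrays and 9 without 4. Over all probe sets the calls were 0 with no block, 123 with no filter, 924 with trend and robust variances, 3057 without 2 arrays, 2904 without 4, 0 and 25 on left and right arrays, and 2 to 427 without 1 animal. Between VFC and STC the 0 calls became 1 with 1 gene symbol, with the mean of a gene's probe sets, and without 2 or 4 arrays, and ranged from 0 to 1 without 1 animal. Over all probe sets they were 14 with no block, 15 with no filter, 139 with the 60th percentile, 202 with 1 gene symbol, 135 with trend and robust variances, 211 with the mean of probe sets, 159 without 2 arrays, 266 without 4, 3 and 0 on left and right arrays, and 1 to 82 without 1 animal.

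Left minus right gave 0 calls among the 44 genes in all 15 alternatives run in each comparison, the fit with no replicate block among them. Over all probe sets 1 was called over all regions with 1 gene symbol, centred arrays, repeated quantile normalization or the mean of probe sets, 1 in VFC with the 60th percentile, and 0 to 1 in both without 1 animal. Some genes near 0 changed sign. Between VFC and M1C, DNAJC5 read 0.021 as the mean of its probe sets, HSPA5 0.019 and HSPH1 0.038 on left arrays. HSPB8 read -0.0072, -0.0087 and -0.0034 and DNAJB6 -0.0080, -0.019 and -0.033 without 2 arrays, without 4 and on right arrays. Leaving out 1 animal gave -0.048 to 8.2e-04 for HSPA5, -0.0099 to 0.079 for HSPB8, -0.032 to 0.0027 for HSPH1 and -0.042 to 0.086 for DNAJB6. Left minus right of DNAJB9 read 0.013 without 4 arrays. The cause of these changes was not tested. On left or right arrays alone each fitted value came from a single array in place of the mean of both hemispheres, and leaving out animals gave fewer values to each fit.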
